A study of Mus musculus with 2116 samples.

Results

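Messenger RNA of 8 receptors of the tumour necrosis factor (TNF) receptor superfamily was measured in single CD4+ T cells of the mouse spleen: Tnfrsf4, Tnfrsf9, Tnfrsf18, Tnfrsf1b, Cd27, Tnfrsf1a, Fas and Tnfrsf25. They were chosen by name, as members of this receptor family with known roles in T cells, and with earlier results of these data known. They are 8 of the 23725 genes in the table. All 8 had at least 20 unique molecular identifiers (UMIs), the tags that mark single captured mRNA molecules, over both libraries together. Treg stands here for 816 cells labelled as regulatory T cells and Tconv for 1300 cells labelled as conventional CD4+ T cells, 1 library each, both from the spleen of male mice of the strain B6 Foxp3-Ires-Gfp aged 8 months, with no treatment named in the labels. In this strain green fluorescent protein (GFP) is made from the Foxp3 locus and marks cells that transcribe Foxp3, the transcription factor of regulatory T cells. The Tconv group was sorted from the same reporter strain, so both groups carry the reporter allele. The labels name no animals and give 1 library per group. No difference between Treg and Tconv therefore has a replicate check, and library and cell type cannot be told apart.

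Receptors of this family are trimeric surface proteins that are engaged by trimeric ligands on antigen-presenting cells, on other T cells or in solution. Those without a death domain (Tnfrsf4, Tnfrsf9, Tnfrsf18, Tnfrsf1b and Cd27) bind TRAF adaptors in the cytoplasm and feed the classical and alternative NF-kB pathways, which costimulate T cells and favour their survival. Those with a death domain (Tnfrsf1a, Fas and Tnfrsf25) can also recruit TRADD or FADD, and Fas triggers caspase-dependent death. Regulatory T cells are known for surface OX40, GITR and TNFR2, the proteins of Tnfrsf4, Tnfrsf18 and Tnfrsf1b.

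The Treg library held 1468203 UMIs, with a median of 1688.5 per cell (highest 8221), and the Tconv library 2002752, with a median of 1510.5 (highest 6004). Foxp3 itself stood at 380.1 CPM (UMIs per 1000000 UMIs of the library) in Treg and 2.996 CPM in Tconv, higher in the library labelled Treg; the text on the sort gives GFP+ for either group. At least 1 UMI of the T lineage list was found in 781 of 816 Treg cells and in 1269 of 1300 Tconv cells. At least 3 UMIs of a list of another cell type were held by 66 Treg cells (8.09%) and 38 Tconv cells (2.92%), mostly of the plasmacytoid dendritic list (37 and 20 cells) and the B cell list (23 and 12 cells). The B cell list had UMIs of 11 of its 12 genes in Treg and of 10 of 12 in Tconv, summed to 740.4 and 212.7 CPM, with a median of 0 UMIs per cell in both and at most 70 in a Tconv cell; Pax5 was at 0 in both. All 8 genes of the plasmacytoid dendritic list had UMIs in Treg, against 7 of 8 in Tconv, with summed levels of 327.6 and 195.2 CPM and 0 to 66 and 0 to 23 UMIs per cell. The myeloid list summed to 375.3 CPM in Treg and 198.7 CPM in Tconv, and the erythroid list to 151.2 CPM in Treg and 0 in Tconv. With the cells of other types left out, 4 of the 8 receptors were still 2-fold or more higher in Treg. The libraries shared 12 cell barcodes, which are 1.47% of the Treg and 0.923% of the Tconv barcodes.

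In the mouse genome (GRCm38, the assembly also called mm10) the GENCODE annotation places 5 of the 8 genes on chromosome 4: Tnfrsf1b at chr4:145213463-145246870 on the minus strand, and Tnfrsf9 at chr4:150914562-150946102, Tnfrsf25 at chr4:152115934-152120119, Tnfrsf4 at chr4:156013843-156016612 and Tnfrsf18 at chr4:156026164-156028895 on the plus strand. Tnfrsf4 and Tnfrsf18 are neighbours, 9551 bp apart. Cd27 lies at chr6:125232622-125237010 on the minus strand and Tnfrsf1a at chr6:125349362-125362484 on the plus strand, and Fas lies at chr19:34290666-34327772 on the plus strand. The 4 genes with the largest ratios of Treg to Tconv below are all among the 5 on chromosome 4, together with Tnfrsf25, which had a ratio near 1.

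Promoter windows of those 4 genes are shown because their transcripts were higher in Treg and were found together in single Treg cells. Each window is taken from RefSeq (GRCm38.p6), covers 250 bases before and 50 after a transcription start, and is written 5′ to 3′ on the strand of the gene. Capitals mark letters that match the NF-kB consensus. The Tnfrsf4 window (chr4:156013445-156013744, plus strand) ends upstream of the GENCODE start of the gene, the Tnfrsf18 window (chr4:156026072-156026371, plus) and the Tnfrsf1b window (chr4:145246821-145247120, minus) span their GENCODE starts, and the Tnfrsf9 window (chr4:150927749-150928048, plus) belongs to a start inside the annotated gene.
Tnfrsf4: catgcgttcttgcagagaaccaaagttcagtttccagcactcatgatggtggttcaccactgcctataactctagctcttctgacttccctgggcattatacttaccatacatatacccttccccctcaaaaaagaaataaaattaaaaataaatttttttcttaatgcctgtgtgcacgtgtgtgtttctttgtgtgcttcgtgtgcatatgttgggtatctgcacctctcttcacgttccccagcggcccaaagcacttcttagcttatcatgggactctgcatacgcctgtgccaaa
Tnfrsf18: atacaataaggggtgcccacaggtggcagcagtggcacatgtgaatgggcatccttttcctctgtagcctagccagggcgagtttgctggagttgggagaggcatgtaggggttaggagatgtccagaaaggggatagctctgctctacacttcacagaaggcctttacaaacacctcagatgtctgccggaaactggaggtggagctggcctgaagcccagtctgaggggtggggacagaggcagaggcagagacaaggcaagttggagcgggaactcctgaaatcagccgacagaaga
Tnfrsf9: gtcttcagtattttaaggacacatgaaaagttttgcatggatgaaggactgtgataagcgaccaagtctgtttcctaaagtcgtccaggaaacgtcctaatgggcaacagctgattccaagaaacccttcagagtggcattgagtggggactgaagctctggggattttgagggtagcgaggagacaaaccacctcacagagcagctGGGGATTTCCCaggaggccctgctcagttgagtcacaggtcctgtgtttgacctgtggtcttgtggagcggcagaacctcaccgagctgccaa
Tnfrsf1b: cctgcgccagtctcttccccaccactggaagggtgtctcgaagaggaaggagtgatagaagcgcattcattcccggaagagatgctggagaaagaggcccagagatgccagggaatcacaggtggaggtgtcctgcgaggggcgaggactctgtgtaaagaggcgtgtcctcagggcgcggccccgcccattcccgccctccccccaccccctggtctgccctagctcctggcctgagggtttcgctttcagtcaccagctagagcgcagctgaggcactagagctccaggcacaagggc
The table of RefSeq windows held 10 windows for the 8 genes. Both strands were searched, and a palindromic match was counted once. The NF-kB consensus was found in windows of 2 of the 8 genes, Tnfrsf9 and Tnfrsf25, against 8.46% of all 32851 mouse windows. In the printed Tnfrsf9 window it matched at a pair of overlapping positions, of which the first begins at -43 from the start. Tnfrsf9 has another window (chr4:150919905-150920204, plus), not printed here. It held no match to the NF-kB, AP-1 or STAT motif. The AP-1 motif TGANTCA was present for 2 genes, Tnfrsf9 (at -15) and Fas, against 7.81% of windows, and it did not overlap the NF-kB match. The STAT motif TTCNNNGAA was present for 6 genes, including Tnfrsf9, Tnfrsf18 and Tnfrsf1b, against 8.30% of windows. The NFAT core GGAAAA was present for 5 genes, against 23.4% of windows, and the forkhead motif GTAAACA for 0 of 8, against 3.65%. None of these 5 motifs occurred in the Tnfrsf4 window. The shares of all windows are per window, while a gene with more than 1 window had more places to match. By window, the NF-kB and AP-1 motifs were each found in 2 of 10, STAT in 6, NFAT in 5 and forkhead in 0. Such matches describe letters in these windows and not binding.

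The Treg level was 2 or more times the Tconv level for 4 of the 8 receptors: Tnfrsf4, Tnfrsf9, Tnfrsf1b and Tnfrsf18. None was lower by that much. The same rule took 8.61% of the 8988 genes with a sum of 20 UMIs or more in the upward and 3.6% in the downward direction, and the median log2 ratio was 0.14. The 8 receptors were chosen with earlier results of these data known, so their count is not a test against these shares. The 8 receptors together stood at 1473 CPM in Treg and 532.3 CPM in Tconv, from 2163 and 1066 UMIs, a ratio of 2.77 (95% interval 2.57 to 2.98). All intervals are exact 95% intervals and cover counting error only; they take UMIs as independent, and for the receptors whose UMIs gather in few cells they are too narrow. In such sums, more positive cells and more RNA per positive cell cannot be told apart, so shares of cells follow each level. Where 0 cells were found, the share said to be allowed is 3 cells over the number of cells. It lies below the exact upper end, which for 0 of 1300 cells is 0.283% against 0.231%.

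Tnfrsf4, which encodes OX40, a receptor that activated T cells and regulatory T cells carry, stood at 271.8 CPM (245.7 to 299.8) in Treg and 10.5 CPM (6.49 to 16.03), from 21 UMIs, in Tconv. The ratio was 25.9 (16.7 to 42.3), a log2 ratio of 4.70. Treg cells held 0 to 13 UMIs of it and Tconv cells 0 to 2, with a median of 0 in both. At least 1 UMI was found in 21.4% of the 816 Treg cells and in 1.54% of the 1300 Tconv cells, and at least 3 UMIs in 46 Treg cells and in 0 Tconv cells, which allows up to 0.231% of Tconv cells. The Treg cells with Tnfrsf4 held 2.28 UMIs of it on average and the Tconv cells 1.05, the latter from 20 cells. Both the share of cells and the content of a positive cell were thus higher in Treg. The higher content was not particular to Tnfrsf4. It was seen for each of the 8 receptors, also for Tnfrsf1a (1.95 in Treg against 1.56 in Tconv), whose summed level was not higher in Treg. A Foxp3 UMI was found in 48.6% of the Treg cells with Tnfrsf4 and in 0 of the 20 Tconv cells with it.

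Tnfrsf9, which encodes 4-1BB, a receptor induced by antigen, stood at 164.1 CPM in Treg and 12.5 CPM in Tconv, the Tconv value from 25 UMIs, a ratio of 13.2 (8.69 to 20.7), or 3.72 on the log2 scale; without cells with markers of other types the log2 ratio was 4.32. Treg cells held 0 to 12 UMIs and Tconv cells 0 to 6, again with a median of 0. It was detected in 12.5% of Treg cells and 1.0% of Tconv cells (13 cells). In Tconv, 1 cell held 24% of all Tnfrsf9 UMIs, and that cell had at least 3 UMIs of another cell type's list. Of the 13 positive Tconv cells 3 held such markers, against 6.86% of the positive Treg cells.

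Tnfrsf1b, which encodes TNFR2, the TNF receptor without a death domain, stood at 138.9 CPM in Treg and 29.96 CPM in Tconv, the Tconv value from 60 UMIs, a ratio of 4.64 (3.46 to 6.29). Treg cells held 0 to 8 UMIs and Tconv cells 0 to 5. It was found in 85 Treg cells (10.4%) and 35 Tconv cells (2.69%), with at least 3 UMIs in 30 Treg and 7 Tconv cells. Cells with several copies were thus found in both libraries, and more of them in Treg.

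Tnfrsf18, which encodes GITR, a receptor of regulatory and activated T cells, stood at 308.5 CPM in Treg and 67.9 CPM in Tconv, a ratio of 4.54 (3.74 to 5.54). Treg cells held 0 to 11 UMIs and Tconv cells 0 to 4. It was detected in 29.5% of Treg cells and in 8.46% of Tconv cells, so a Tconv fraction with Tnfrsf18 was seen where Tnfrsf4 and Tnfrsf9 were rare. The intervals of the Tnfrsf4 and Tnfrsf9 ratios overlapped, as did those of Tnfrsf1b and Tnfrsf18, whereas the Tnfrsf9 interval lay above that of Tnfrsf1b.

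Cd27, the receptor for CD70 that is carried by naive and memory T cells, stood at 413.4 CPM in Treg and 261.6 CPM in Tconv. Its ratio was 1.58 (1.40 to 1.78). Treg cells held 0 to 9 UMIs and Tconv cells 0 to 5. It was found in 43.1% of Treg cells and 28.9% of Tconv cells, so it was common in both libraries. Its ratio was above 1 beyond counting error and under the 2-fold rule. At the level of single genes an interval above 1 was not rare: it was seen for 23% of the 8988 genes, and an interval below 1 for 9.16%.

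None of the 3 receptors with a death domain differed by 2-fold. Fas, the death receptor of lymphocytes, stood at 68.8 CPM in Treg and 40.9 CPM in Tconv, a ratio of 1.68 (1.24 to 2.28), and was found in 45 Treg cells (5.51%) and 53 Tconv cells (4.08%). The Treg cells with Fas more often carried markers of other cell types, 8 of 45, against 2 of 53 in Tconv, and without such cells 85 Treg and 77 Tconv UMIs were left, a log2 ratio of 0.69, against 0.75 with them. Tnfrsf25, which encodes DR3, the receptor of TL1A, stood at 50.4 CPM in Treg and 41.9 CPM in Tconv, a ratio of 1.20 (0.867 to 1.66). Its cells rarely held more than 1 UMI, with a highest value of 3 in Treg and 2 in Tconv. Tnfrsf1a, which encodes TNFR1, the TNF receptor with a death domain, stood at 57.2 CPM in Treg and 66.9 CPM in Tconv, a ratio of 0.855 (0.643 to 1.13). The intervals of Tnfrsf25 and Tnfrsf1a include 1, which does not show equal levels. Of the pair of TNF receptors, the one without a death domain had thus a ratio of 4.64 and the one with it 0.855.

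**Figure D1:**
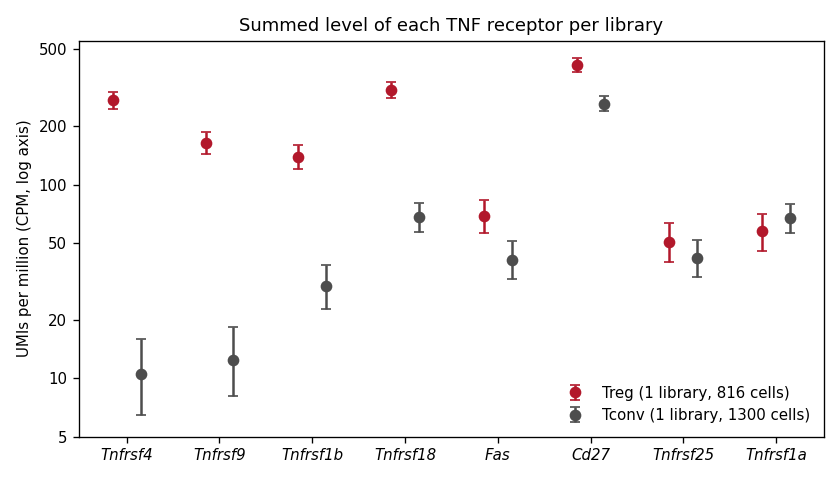
Summed level of each receptor in the Treg and the Tconv library, in CPM on a log axis, with exact Poisson 95% intervals. Tnfrsf4, Tnfrsf9, Tnfrsf1b and Tnfrsf18 were higher in Treg by a wide margin, while the intervals of Tnfrsf25 and Tnfrsf1a overlap between the libraries.

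**Figure D2:**
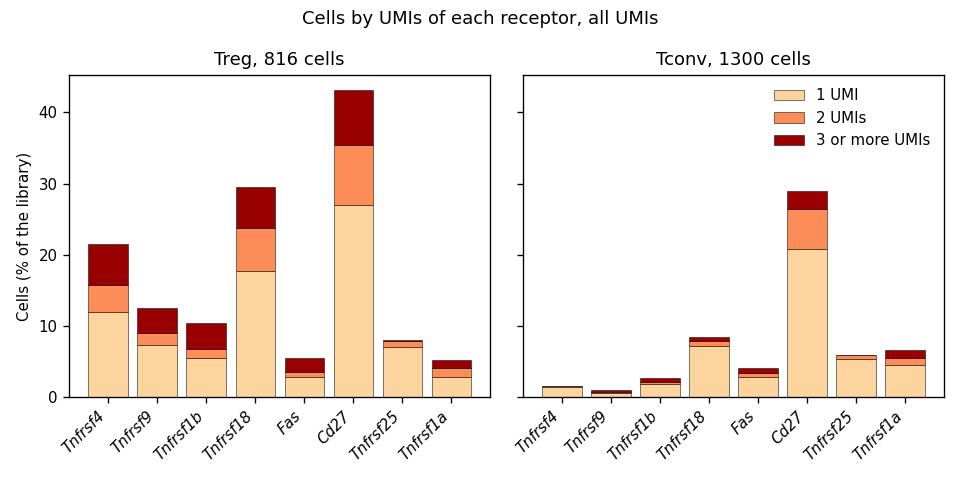
Share of cells with 1, 2 and at least 3 UMIs of each receptor, in percent of the 816 Treg and 1300 Tconv cells at full depth. Tnfrsf4 had 46 Treg cells with at least 3 UMIs and 0 such Tconv cells.

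Because a deeper cell detects more genes, shares were also taken after thinning each cell to 1000 UMIs, which kept 738 Treg cells (90.4%) and 85.2% of Tconv cells and left out the shallower 9.56% and 14.8%. Tnfrsf4 was then detected in 15.7% of Treg and 1.53% of Tconv cells, Tnfrsf9 in 8.81% and 0.632%, Tnfrsf18 in 22.8% and 6.41%, and Tnfrsf1b in 7.99% and 2.26%. Cd27 was detected in 30.6% of Treg and 20.1% of Tconv cells. Fas was detected in 3.66% and 3.16%, Tnfrsf25 in 5.28% and 3.97%, and Tnfrsf1a in 3.79% and 5.23%. The share was thus higher in Treg for 7 of the 8 receptors at this depth, all but Tnfrsf1a, against 48.4% of the 7629 genes with 20 UMIs or more in the thinned cells. The intervals of both libraries overlapped for Fas, Tnfrsf25 and Tnfrsf1a. At 2000 UMIs, which fewer cells reached, the share was higher for 8.

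Cells with at least 3 UMIs of the B cell list served as a comparison for receptors that B cells should lack or carry little of. There were 23 in the Treg library and 12 in the Tconv library, with medians of 1867 and 1752 UMIs, against 1688.5 and 1510.5 for all cells. Of these, 12 in Treg and 8 in Tconv also held T lineage UMIs. Tnfrsf4 was found in 3 of the 23 Treg-library cells (13.04%, 2.78 to 33.6) and in 0 of the 12 Tconv-library cells, which allows up to 25%. Tnfrsf9 was found in 1 of 23 (4.35%) and in 0 of 12, Tnfrsf18 in 4 of 23 (17.4%) and 2 of 12 (16.7%), and Tnfrsf1b in 3 of 23 (13.04%) and 2 of 12 (16.7%). Cd27 was found in 1 of 23 and 2 of 12, Fas in 1 of 23 and 0 of 12, Tnfrsf1a in 2 of 23 (8.70%) and 0 of 12, and Tnfrsf25 in 0 of both. With so few cells, the intervals of these shares held the share of all cells for every receptor in both libraries except Cd27 in Treg, so the shares alone do not separate the other receptors from background.

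The receptors differed in how their UMIs were spread over cells. At 1000 UMIs per cell the Fano factor, the variance over the mean, was 2.15 for Tnfrsf4, 2.54 for Tnfrsf9, 2.47 for Tnfrsf1b and 2.59 for Fas in Treg, against a median of 1.64 over genes with a mean of 0.02 to 0.5 UMIs. The upper quartile of those genes was 2.08 and their 95th percentile 2.90, which none of the receptors passed. In Tconv it was 1.76 for Tnfrsf1b, 1.76 for Tnfrsf1a and 1.60 for Fas, against a median of 1.30, an upper quartile of 1.56 and a 95th percentile of 2.09. Tnfrsf4 and Tnfrsf9 had too few Tconv UMIs to be read there. Cd27 (1.37 in Treg and 1.26 in Tconv) and Tnfrsf25 (1.04 and 1.09) lay below the median of their library, although 63 Treg cells held at least 3 UMIs of Cd27 at full depth. Tnfrsf18 had 1.72 in Treg and 1.35 in Tconv, close to the medians, and Tnfrsf1a had 1.67 in Treg.

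The level of Tnfrsf4 in Treg also moved with the UMI total of the cell. In 3 equal groups of cells from shallow to deep, the deepest with a median of 2362.5 UMIs, Tnfrsf4 had 162.4 (119.7 to 215.3), 250.2 (206.5 to 300.3) and 331.025 (290.1 to 376.1) CPM. Tnfrsf1b had 98.1, 128.3 and 162.7 CPM in the same groups. Tnfrsf9 had 162.4, 163.1 and 165.5 CPM, and Cd27 had 477.1, 380.7 and 408.2 CPM. Tnfrsf4 thus made up a larger part of the mRNA in Treg cells with more UMIs, while Tnfrsf9 made up the same part within counting error.

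Several of the receptors were found in the same Treg cells. Of the 28 possible pairs, 21 had at least 3 cells to be expected from the product of both shares at 1000 UMIs per cell, and 5 of these had an observed number whose interval lay above that product. All 5 were among Tnfrsf4, Tnfrsf9, Tnfrsf18 and Tnfrsf1b. Over all pairs of a receptor with any gene in at least 5% of Treg cells, 1.47% had such an interval. In Tconv 7 pairs had at least 3 expected cells and 0 had such an interval, against 0.825% over all genes; 6 of these 7 included Cd27, so the other pairs could hardly be measured there.

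Tnfrsf4 and Tnfrsf1b were found together in 24 Treg cells, against 9.27 from the product of the shares, a ratio of 2.59 (1.66 to 3.85). These are 20.7% of the cells with Tnfrsf4 and 40.7% of those with Tnfrsf1b. Tnfrsf4 and Tnfrsf9 were found together in 24 cells against 10.2, a ratio of 2.35 (1.51 to 3.495), which are 20.7% of the Tnfrsf4 cells and 36.9% of the Tnfrsf9 cells. The intervals of these pairs and of those that follow overlap, and their order changed with the setting. Tnfrsf4 and Tnfrsf18 shared 48 cells against 26.4, a ratio of 1.82 (1.34 to 2.41). Tnfrsf9 and Tnfrsf18 shared 26 cells against 14.8, a ratio of 1.76 (1.15 to 2.57), and Tnfrsf9 and Tnfrsf1b shared 11 against 5.20, a ratio of 2.12 (1.06 to 3.79). The sixth pair, Tnfrsf18 and Tnfrsf1b, shared 14 cells against 13.4, a ratio of 1.04 (0.570 to 1.75). The 3 pairs with Tnfrsf4 kept their intervals above 1 in each alternative run. Tnfrsf9 with Tnfrsf18 did not once cells with markers of other types were left out (1.57, 0.984 to 2.38) or the expected number was summed over groups of like depth (1.35, 0.978 to 1.81). Tnfrsf9 with Tnfrsf1b did not at a second draw of the thinning (1.83, 0.788 to 3.598) or without the deepest cells (2.08, 0.998 to 3.83). The size of the Tnfrsf4 ratios moved too. Unthinned cells with the expected number summed over groups of like depth gave 1.80 with Tnfrsf1b, 1.81 with Tnfrsf9 and 1.51 with Tnfrsf18. At 500 UMIs per cell the same pairs had 2.72, 2.99 and 2.03.

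Cd27 was found in many more cells, and its co-detection with the other receptors was not set apart from the product of the shares. It shared 37 Treg cells with Tnfrsf4 against 35.5 from the product of the shares, 48 with Tnfrsf18 against 51.4, and 19 with Tnfrsf9 against 19.9. Its ratio with Tnfrsf1b was 1.33 (0.851 to 1.98) and with Tnfrsf25 0.670 (0.289 to 1.32). In Tconv its ratio with Tnfrsf25 was 0.452 (0.123 to 1.16), from 4 cells against 8.86. No co-detection interval of a Cd27 pair excluded 1 in either library, which does not show that Cd27 is independent of the others. By level, Cd27 had a ratio of 1.78 (1.07 to 2.80) in Treg cells with over those without Fas. With over without Tnfrsf25 it was 0.466 (0.199 to 0.929) in Treg and 0.350 (0.0948 to 0.908) in Tconv. Split by a Cd27 UMI instead, the intervals of Fas and Tnfrsf25 included 1. The share of all genes with such intervals was not computed for these splits.

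**Figure D3:**
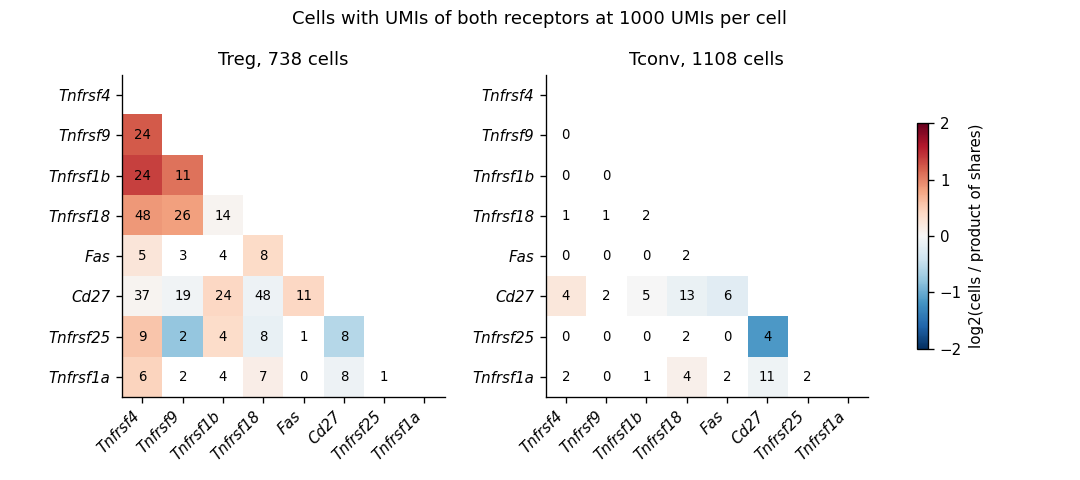
Number of cells with UMIs of both receptors of a pair at 1000 UMIs per cell, coloured by the log2 of that number over the product of the shares; pairs with fewer than 3 expected cells are left white. The red block in Treg holds the pairs of Tnfrsf4 with Tnfrsf9, Tnfrsf1b and Tnfrsf18.

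The levels of the receptors were also compared between Treg cells with and without Tnfrsf4. In the 15.7% of thinned Treg cells with a Tnfrsf4 UMI, Tnfrsf9 had 465.5 CPM, against 99.7 CPM in those without one, a ratio of 4.67 (3.18 to 6.84). Tnfrsf1b had 413.8 CPM in the cells with Tnfrsf4 and 94.9 CPM in those without, a ratio of 4.36 (2.92 to 6.49), and Tnfrsf18 had 681.0 and 265.3 CPM, a ratio of 2.57 (1.94 to 3.38). Cd27 had 439.7 and 426.045 CPM, a ratio of 1.03 (0.749 to 1.40). Over all genes 7.92% had an interval above 1 in this split. It uses the same thinned cells as the pairs above and gives their co-detection as levels, not as a second line of evidence.

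At least 3 of Tnfrsf4, Tnfrsf9, Tnfrsf18 and Tnfrsf1b were found in 25 of 738 thinned Treg cells (3.39%), against 5.88 from the product of the shares. The set was taken after its pairs were seen in the same cells, so this describes those pairs further and adds no support to them. All 4 were found in 4 cells, against 0.186. In Tconv 0 cells held 3 of them, which allows up to 0.271%; the product of the shares there was only 0.0435 cells, so Tconv could not show such cells at this depth. Without cells with markers of other types there were 23 Treg cells against 5.49. At full depth 48 Treg cells held 3 or 4 of them, with a median of 2193 UMIs, and 51.3% of Treg cells held none, with a median of 1557. All 48 held T lineage UMIs (median 13), 24 held Foxp3 (50%, against 29.1% of the cells with none), 5 held markers of another type and 0 were called doublets. Only 1 Treg cell in all was called a doublet, so this 0 says little about doublets. Of the 48 cells, 8 had more than 2 times the median UMIs, as did 8 of the far more numerous cells with none. With such deep cells left out, 24 thinned Treg cells held at least 3 of the 4 receptors, against 5.36 from the product of the shares. The part of depth in the Foxp3 shares was not tested.

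The 5 Treg cells with the highest sum of the 8 receptors are given as examples; that sum chose them, so that they hold several receptors is no result. The first, with 1875 UMIs in all, held 12 of Tnfrsf4, 12 of Tnfrsf9, 8 of Tnfrsf1b, 1 of Cd27, 0 of Tnfrsf18 and 7 of Foxp3. The second, with 2253 UMIs, held 13 of Tnfrsf4, 8 of Tnfrsf9, 6 of Tnfrsf1b, 4 of Tnfrsf18, 2 of Cd27 and 2 of Foxp3. The third, with 1814 UMIs, held 11 of Tnfrsf4, 4 of Tnfrsf9, 5 of Tnfrsf18, 0 of Tnfrsf1b, 6 of Fas and 2 of Foxp3. Tnfrsf4 was found in each of the 5, and the makeup of the rest differed from cell to cell. The fourth held 6 of Tnfrsf4, 8 of Tnfrsf9, 3 of Tnfrsf18, 0 of Tnfrsf1b and 5 of Cd27, and the fifth, the deepest with 6292 UMIs, held 7 of Tnfrsf4, 0 of Tnfrsf9, 6 of Tnfrsf18 and 7 of Tnfrsf1b; both had 0 of Foxp3. The third and the fifth held at least 3 UMIs of another cell type's list. The highest Tconv cell held 9 receptor UMIs, 6 of them Tnfrsf9, and held such markers too, as did 1 of the next 4 Tconv cells.

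**Figure D4:**
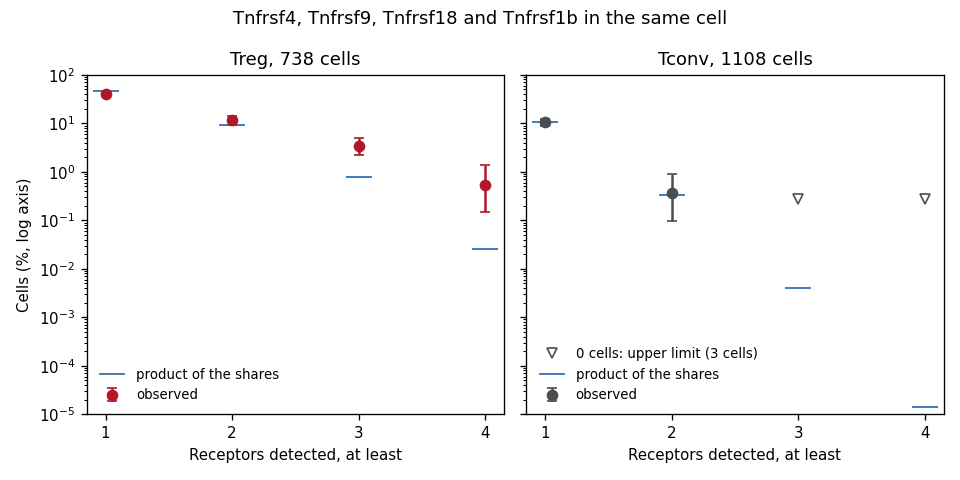
Share of cells, in percent on a log axis, with at least 1, 2, 3 or 4 of Tnfrsf4, Tnfrsf9, Tnfrsf18 and Tnfrsf1b at 1000 UMIs per cell, with exact 95% intervals, beside the product of the shares. In Treg 25 cells held at least 3, against 5.88 from the product. Open triangles mark 0 cells and are drawn at 3 cells over the number of cells.

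Treg cells were further compared across ranges of 3 list scores and of Foxp3, at 1000 UMIs per cell. Each range is a stretch of a score and not a cell type. Foxp3 was split at 0 UMIs (25.5% of cells above). The TCR response list, with the Nr4a and Egr genes that T cell receptor signals induce, was split at 0 UMIs (44.04% above). Irf8 of this list is also in the plasmacytoid dendritic list. The effector or memory list, with the S100 and annexin genes, was split at 2 UMIs (44.6% above and 17.3% at 2), and the resting list, with Ccr7 and Tcf7, at 6 UMIs (39.2% above and 10.4% at 6).

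By summed level, 4 of the 8 receptors had an interval above 1 across the TCR response range, where 7.96% of all genes had one and 5.99% had one below 1. Tnfrsf9 had 227.7 CPM in Treg cells with TCR response UMIs, against 101.7 CPM in those without, a ratio of 2.24 (1.51 to 3.35). Tnfrsf1b had a ratio of 1.62 (1.09 to 2.43), Tnfrsf4 of 1.54 (1.14 to 2.07) and Tnfrsf18 of 1.40 (1.08 to 1.82). The shares of positive cells on either side of the split had overlapping intervals for all 4. For Tnfrsf9 the shares were 11.1% with TCR response UMIs and 7.02% without. For Tnfrsf1b they were 10.8% (7.62 to 14.7) and 5.81% (3.76 to 8.52). Cd27 had a ratio of 1.06 (0.847 to 1.33). With the split at the upper quartile the Tnfrsf1b ratio was 1.34 (0.854 to 2.06), so its interval included 1, and those of the other 3 did not. Within Tconv, Tnfrsf18 moved the other way, with 46.96 CPM in the 32.7% of cells above and 91.2 CPM in those at 0, a ratio of 0.515 (0.284 to 0.887), where 3.3% of genes had an interval below 1 and 4.4% one above 1; the upper quartile split gave 0.478 (0.186 to 1.03). The difference between the libraries was not tested.

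Across the Foxp3 split the summed levels of 2 receptors had an interval above 1, where 6.55% of genes had one and 5.41% had one below 1. Tnfrsf9 had 250 CPM in Treg cells with a Foxp3 UMI and 125.5 CPM in those without, a ratio of 1.99 (1.35 to 2.93). Its shares of positive cells, 12.8% (8.35 to 18.4) and 7.45% (5.40 to 9.98), had overlapping intervals. Tnfrsf1a had 90.4 and 40 CPM, a ratio of 2.26 (1.13 to 4.46). Tnfrsf4 and Tnfrsf18 had ratios of 1.32 (0.952 to 1.80) and 1.32 (0.996 to 1.75). The Treg cells without a Foxp3 UMI thus held Tnfrsf4 at 238.2 CPM and Tnfrsf18 at 305.5 CPM, against 10.5 and 67.9 CPM over all cells of the Tconv library at full depth. A cell without a Foxp3 UMI at this depth is not shown to lack Foxp3.

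Tnfrsf1b went with the effector or memory range in Treg, with 215.8 CPM above and 88.0 CPM at or below the split, a ratio of 2.45 (1.62 to 3.77), where 9.45% of genes had an interval above 1 and 6.51% one below 1. It did so in Tconv too, with 48.05 CPM above and 21.9 CPM at or below, a ratio of 2.19 (1.04 to 4.61), where 5.8% of genes did and 4.27% had one below 1; this was lost without cells with markers of other types. Cells with Tnfrsf1b made up 11.2% (8.04 to 15.2) above and 5.38% (3.40 to 8.03) at or below in Treg, with intervals that nearly met. In Tconv they made up 3.30% (1.66 to 5.83) and 1.81% (0.991 to 3.01), with overlapping intervals. Tnfrsf18 had a ratio of 0.987 (0.760 to 1.28) in Treg. Without cells with markers of other types, Tnfrsf4 (1.53, 1.12 to 2.10) and Tnfrsf9 (1.52, 1.02 to 2.27) also had intervals above 1 in this range in Treg. With the split at the upper quartile so did Tnfrsf9 in Treg (1.506, 1.02 to 2.21) and Fas in Tconv (2.68, 1.35 to 5.12).

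Across the resting range in Treg, Tnfrsf4 had 193.8 CPM above the split and 298.4 CPM at or below it, a ratio of 0.649 (0.467 to 0.893). Tnfrsf9 had 110.7 and 187.1 CPM, a ratio of 0.592 (0.381 to 0.899). An interval below 1 was found for 7.24% of genes. Cells with Tnfrsf9 made up 4.50% (2.42 to 7.57) above and 11.6% (8.77 to 14.9) at or below, with intervals apart. Those with Tnfrsf4 made up 12.5% (8.88 to 16.8) and 17.8% (14.4 to 21.7), with overlapping intervals. Tnfrsf1a had 76.1 and 37.9 CPM, from 22 and 17 UMIs, a ratio of 2.01 (1.02 to 4.03), where 7.46% had an interval above 1. Its shares of positive cells, 5.19% (2.93 to 8.42) and 2.90% (1.55 to 4.90), had overlapping intervals. With the split at the upper quartile Tnfrsf4 (0.528, 0.306 to 0.860) and Tnfrsf9 (0.529, 0.256 to 0.986) still had intervals below 1, while that of Tnfrsf1a included 1 (1.303, 0.518 to 2.898). At that split Tnfrsf18 had a ratio of 0.475 (0.289 to 0.745), against 0.816 (0.619 to 1.07) at the median split, and Cd27 one of 1.33 (1.0005 to 1.75). In Tconv, Tnfrsf1b had 14.8 CPM in the 55.1% of cells above and 48.2 CPM in those at or below, a ratio of 0.306 (0.125 to 0.682), and Tnfrsf18 had 57.4 and 100.4 CPM, a ratio of 0.571 (0.360 to 0.898), where 5.04% of genes had an interval below 1 and 4.55% one above 1. At the upper quartile both Tconv intervals included 1, with ratios of 0.406 (0.104 to 1.16) for Tnfrsf1b and 0.736 (0.405 to 1.27) for Tnfrsf18.

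**Figure D5:**
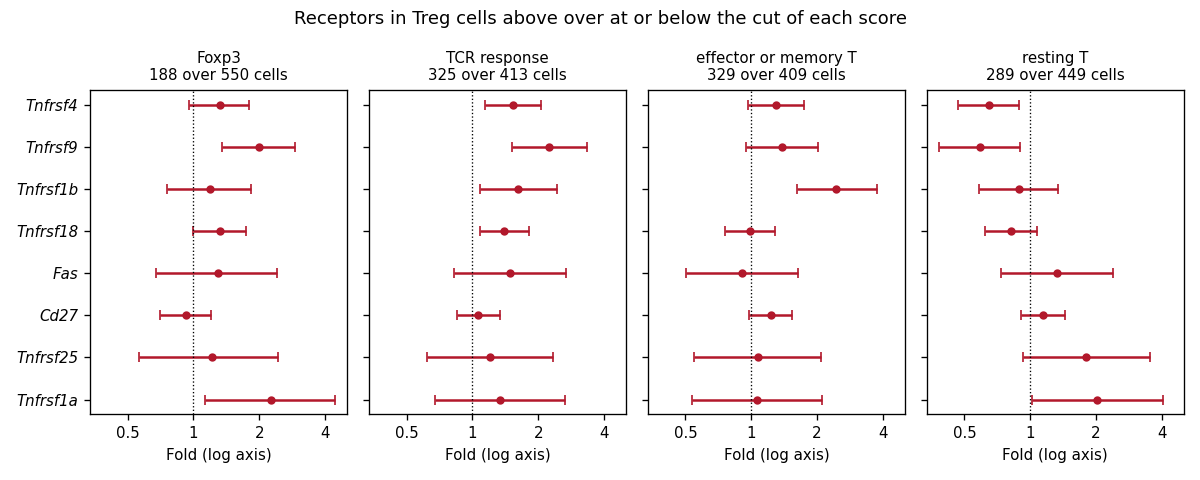
Ratio of each receptor's level in Treg cells above a split to that at or below it, on a log axis with exact 95% intervals, for Foxp3, the TCR response list, the effector or memory list and the resting list. Tnfrsf9 lies above 1 in the first 2 panels and below 1 in the resting panel, while the Cd27 intervals include 1 in every panel at these splits.

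The genes whose UMIs were most alike to each receptor across the 738 thinned Treg cells were listed by Pearson correlation of log(1 + UMI) over 2438 genes found in at least 5% of them. The cells share 1 library and 1 depth, and the values are weak and given as a description. For Tnfrsf4 the 4 nearest genes were Tnfrsf9 (0.253), Tnfrsf1b (0.249), Tnfrsf18 (0.243) and Lrrc32 (0.181), which encodes GARP, the carrier of latent TGF-beta on regulatory T cells, against a median near 0. The 3 receptors stayed among the 4 nearest to Tnfrsf4 by Spearman correlation and without cells with markers of other types, and Lrrc32 did not. For Tnfrsf9 they were Tnfrsf4, Ptpn6 (0.221), which encodes the phosphatase SHP-1, Ephx1 (0.209) and Samsn1 (0.191). For Tnfrsf18 they were Tnfrsf4, Samsn1 (0.186), Tnfrsf9 (0.181) and Bcl2a1b (0.175), and for Tnfrsf1b they were Tnfrsf4, Itm2c (0.220), AW112010 (0.216) and Rcc2 (0.175). Tnfrsf4 was thus nearest to each of the other 3 by Pearson correlation; by Spearman correlation Ptpn6 (0.203) was nearer to Tnfrsf9 than Tnfrsf4 (0.195). Cd27 had Xiap (0.149), AA388235 (0.135), Icos (0.122) and Pdia4 (0.117), and Tnfrsf25 had Denr (0.174), Gnb1 (0.130), Rangap1 (0.126) and D3Ertd254e (0.125). Tnfrsf1a and Fas had under 30 positive Treg cells and were not ranked.

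Other receptors of the superfamily were scarce. Of 20 further receptors 5 passed the minimum of 20 UMIs, and 0 of these differed by 2-fold or more between the groups, with a median log2 ratio of -0.10 against 0.14 for all genes. Relt had 29.97 CPM in Treg and 29.5 CPM in Tconv, and Tnfrsf26 25.2 and 26.96 CPM. Tnfrsf23 had a ratio of 0.779 (0.451 to 1.32) and Tnfrsf10b, a death receptor for TRAIL, of 0.926 (0.489 to 1.72). Under the minimum, Cd40 was counted 13 times in Treg and 1 time in Tconv, and Tnfrsf13b 5 times in Treg and 0 times in Tconv (at least 2.27-fold higher if the Tconv library is given 3 UMIs). Both are receptors of B cells, whose markers were also higher in the Treg library as given above, and the part of those cells in them was not tested.

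Ligands of the 8 receptors were found unevenly. Tnfsf4, Tnfsf18, Cd70 and Tnfsf15, the ligands of OX40, GITR, CD27 and DR3, are listed at 0 UMIs in both libraries, where 3 UMIs would be 2.04 CPM in Treg and 1.498 CPM in Tconv. The annotation used for counting is not stated, so whether these 0 values reflect it was not tested, and they do not show that the ligands are absent. Tnfsf9, the ligand of 4-1BB, gave 1 UMI in Treg and 7 in Tconv. Fasl gave 2 in Treg and 13 in Tconv, a ratio of 0.210 (0.0230 to 0.927). The ligands of the pair of TNF receptors were found: Tnf had 21.8 CPM in Treg and 17.98 CPM in Tconv, a ratio of 1.21 (0.729 to 2.01), and Lta 25.2 and 8.99 CPM, a ratio of 2.80 (1.56 to 5.23). Ltb, which joins Lta in a membrane-bound ligand, had 944.7 CPM in Treg and 690 CPM in Tconv, a ratio of 1.37 (1.27 to 1.48). Of the 17 ligands 6 had at least 20 UMIs, with 2 at least 2-fold higher and 2 at least 2-fold lower, against 8.61% and 3.6% of all genes. Higher were Lta and Tnfsf10 (TRAIL, 2.15, 1.28 to 3.66, and below 2-fold when ribosomal protein genes were left out of the total). Lower were Cd40lg, with 6.13 CPM in Treg and 30.96 CPM in Tconv (0.198, 0.0865 to 0.401), and Tnfsf8, the ligand of CD30 (0.292, 0.0990 to 0.720).

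Of the TRAF adaptors and their partners, which couple the receptors without a death domain to NF-kB, 10 of 11 were measured. Of these 1 was at least 2-fold higher and 0 lower, against 8.61% and 3.6% of all genes, with a median log2 ratio of 0.24. The 1 was Traf1, with 85.1 CPM in Treg and 40.9 CPM in Tconv (2.08, 1.56 to 2.78); it fell below 2-fold when ribosomal protein genes were left out of the total. Birc3, a ubiquitin ligase held by TRAF proteins, had 69.5 and 37.5 CPM (1.86, 1.36 to 2.53), Birc2 55.9 and 46.4 CPM (1.20, 0.883 to 1.64) and Traf3ip3 85.8 and 91.4 CPM (0.939, 0.743 to 1.18). Traf2 and Traf3 had ratios of 1.15 (0.728 to 1.81) and 1.24 (0.855 to 1.79), and Traf5 is listed at 0 UMIs in both libraries, with the same doubt about the annotation as for the ligands.

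Of the death domain pathway 10 of 12 genes were measured. At least 2-fold higher was 1 and lower were 0, against 8.61% and 3.6% of all genes, with a median of 0.34. Bid, which links death receptors to mitochondria, had 42.9 CPM in Treg and 10.98 CPM in Tconv (3.91, 2.37 to 6.67). Cflar, which blocks caspase-8 at the receptor, had 711.1 and 511.8 CPM (1.39, 1.27 to 1.52), Casp8 itself 136.9 and 117.8 CPM (1.16, 0.958 to 1.41), Daxx 93.99 and 64.4 CPM (1.46, 1.14 to 1.87) and Ripk1 66.1 and 56.4 CPM (1.17, 0.883 to 1.55).

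NF-kB subunits and inhibitors had the highest median of these pathway lists, 0.70 against 0.14 for all genes. Of 19 measured genes 16 were higher in Treg, as the median gene was too. An interval above 1 was found for 11, against 23% of all genes, and 4 were at least 2-fold higher, against 8.61%. These 4 were Relb, a subunit of the alternative pathway, with 34.1 CPM in Treg and 13.5 CPM in Tconv (2.53, 1.55 to 4.196), Bcl3 with 73.6 and 30.96 CPM (2.38, 1.72 to 3.30), Tnfaip3, which encodes the inhibitor A20, with 59.3 and 24.97 CPM (2.37, 1.66 to 3.43), and Nfkbiz with 33.4 and 14.5 CPM (2.30, 1.43 to 3.78). Nfkbia, the inhibitor IkB-alpha, had 456.3 and 257.6 CPM (1.77, 1.58 to 1.99), Nfkb1 379.4 and 222.2 CPM (1.71, 1.505 to 1.94), Tnip1 160.7 and 85.4 CPM (1.88, 1.54 to 2.31) and Tab2 201.6 and 123.8 CPM (1.63, 1.37 to 1.94). None of the 19 was at least 2-fold lower.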

How the data were processed

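Spleen CD4+ T cells were profiled by inDrops, a droplet method with oligo dT priming, per the labels' protocols. The authors deposited raw UMI counts of 23725 genes in 2116 cells. TopHat2, SAMtools and the build mm10 stand in the submitters' processing notes; the UMI counter and any cell filter are not stated there. Median mapped reads per cell were 53154 in Treg and 28462.5 in Tconv.

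Cells were grouped by title. UMIs were summed per library and scaled to 1000000 UMIs (CPM), over 1468203 in Treg and 2002752 in Tconv. With 1 library per group no p-value was computed. Exact Poisson, Clopper-Pearson and conditional ratio intervals at 95% (scipy 1.17.1), checked on simulated counts, cover counting error only. Ratios were counted over genes with a sum of 20 UMIs or more, at a fold of 2. Cells were thinned to 1000 UMIs without replacement (numpy 2.4.6). A cell with 3 or more UMIs of another type's list was held to carry markers of that type. Doublets called by scrublet in scanpy 1.11.5 (1 Treg, 12 Tconv) were kept and left out in an alternative. TMM factors came from edgeR 4.0.16.

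The members and lists were chosen with earlier results of these data known. Besides the 8 receptors, the genes named are the 4 most alike to each receptor with at least 30 positive cells. Of each pathway list they are the 4 with the most UMIs and those at least 2-fold changed with an interval that excludes 1. Traf2, Traf3, Traf5 and the ligands at or near 0 UMIs were named after their values were seen. So were the genes whose UMIs are given for the score lists. Alternatives changed the scaling, depth, cells, splits, likeness measure and minimum.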

Additional observations from a re-analysis of the deposited data

How the results depend on the processing

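Under the alternatives for 55 results, 54 values moved, while most stayed the same. Most of the moves were shares of cells that follow the thinning depth. The number of reversed values was 0. Shares and counts have no direction to reverse, so that 0 applies at most to the log2 ratios and the co-detection ratios. The log2 ratio ranged over 4.07 to 4.79 for Tnfrsf4, 2.03 to 2.21 for Tnfrsf18, 2.06 to 2.62 for Tnfrsf1b, 0.50 to 0.76 for Cd27, 0.59 to 0.87 for Fas, 0.11 to 0.39 for Tnfrsf25 and -0.52 to -0.23 for Tnfrsf1a. For Tnfrsf9 it ranged over 3.56 to 4.44, with 4.44 in thinned cells, 4.37 without the deepest cells, 4.32 without cells with markers of other types and 4.31 with equal weight per cell. The median of all genes was 0.14, against 0.01 with the total taken over other than ribosomal genes and -0.02 under TMM scaling. The count of receptors at least 2-fold higher was 4 in each. The count of receptors with an interval excluding 1 across the effector or memory range was 1 in each library; at the upper quartile it was 2 in Treg and 2 in Tconv, and without cells with markers of other types, an alternative chosen for the ranges after seeing the data, 3 in Treg and 0 in Tconv. At the upper quartile it was 0 in Tconv for the resting range, against 2, and 0 for the TCR response range, against 1. With a minimum of 1 UMI, 6 other TNF receptors were at least 2-fold higher, 5 ligands higher and 4 lower, and 2 death domain genes higher. With a minimum of 50 UMIs 1 ligand was lower. Without ribosomal protein genes in the total, 1 ligand and 0 TRAF genes were at least 2-fold higher. The cause of these moves was not tested. Receptors with under 30 positive cells at 1000 UMIs limit the co-detection values, and 1 library per group limits every ratio. No paired analysis was possible because each group was 1 library.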
